A study of Homo sapiens with 18 samples.

Results

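Triptolide was compared with its DMSO vehicle in the control line of ZR-75-1, an established luminal breast cancer cell line that carries the estrogen receptor. The comparison holds the 3 libraries titled control and triptolide treated and the 3 titled control and DMSO treated, 6 of the 18 libraries of the study, chosen by their titles alone. Cells were grown in RPMI with 10% serum, seeded 24 h before treatment, and held for 16 h in RPMI with 1% serum and either triptolide or DMSO, for both of which the labels give 100 nM. The labels call the control line SHC and give its genotype as control. They do not say what it carries or whether it is a clone. The study also holds 3 untreated libraries of this line and 9 of an ADAR knockdown line (3 untreated, 3 with DMSO and 3 with triptolide), ADAR being an RNA editing enzyme that turns adenosine into inosine. RNA was taken on columns with a DNase step, and 500 ng of total RNA went into each stranded total RNA library, so RNA without a poly(A) tail was sequenced as well.

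Triptolide is a plant diterpenoid that binds XPB, the DNA translocase of the general transcription factor TFIIH, which is encoded by ERCC3. TFIIH opens promoters for RNA polymerase II, and blocking it stops new initiation of messenger RNA. RNA polymerase III and the mitochondrial RNA polymerase do not use TFIIH. Once synthesis stops, a message is lost at the pace of its own decay, and messages with short half-lives, such as those of transcription factors and cell cycle regulators, are known to go first.

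The DMSO libraries held between 27317278 and 32816925 counts in genes and the triptolide libraries between 28009505 and 30787063. Nothing in the labels beyond the words biological rep says how the replicates were made, so p-values measure only the spread between these samples. Levels are given as CPM, the count scaled to a common library size after TMM scaling, which sets the bulk of genes level between libraries. Equal amounts of total RNA went into the libraries, no external standard was used here, and fewer cells and less RNA per cell cannot be told apart. A fall or a rise therefore means a change against the other genes of the same library. The median log2 change of the 21285 genes tested was 0.03 with TMM, 0.09 with size factors by the median of ratios, -0.14 with totals without the mitochondrial ribosomal RNAs, -0.60 with total counts and -0.84 with the mitochondrial mRNAs as the standard. The median thus lay 0.63 lower with total counts than with TMM and 0.87 lower with the mitochondrial mRNAs as the standard, and single genes shifted by similar but not equal amounts. Changes are given on the TMM scale, as log2 values with standard errors (SE).

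The composition of the libraries moved with the treatment. Mitochondrial ribosomal RNA made up 23.7, 37.1 and 32.6% of counts in genes with DMSO and 42.7, 55.2 and 52.1% with triptolide, where all 3 values were above all 3 DMSO values. Messages of nuclear protein-coding genes went the other way, from 69.6, 57.9 and 62.8% to 46.6, 38.9 and 41.8%. Reads that aligned to more than one place were 11.1 to 15.3% of all reads with DMSO and 14.2 to 22.6% with triptolide, and their part in the results was not tested.

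**Figure D1:**
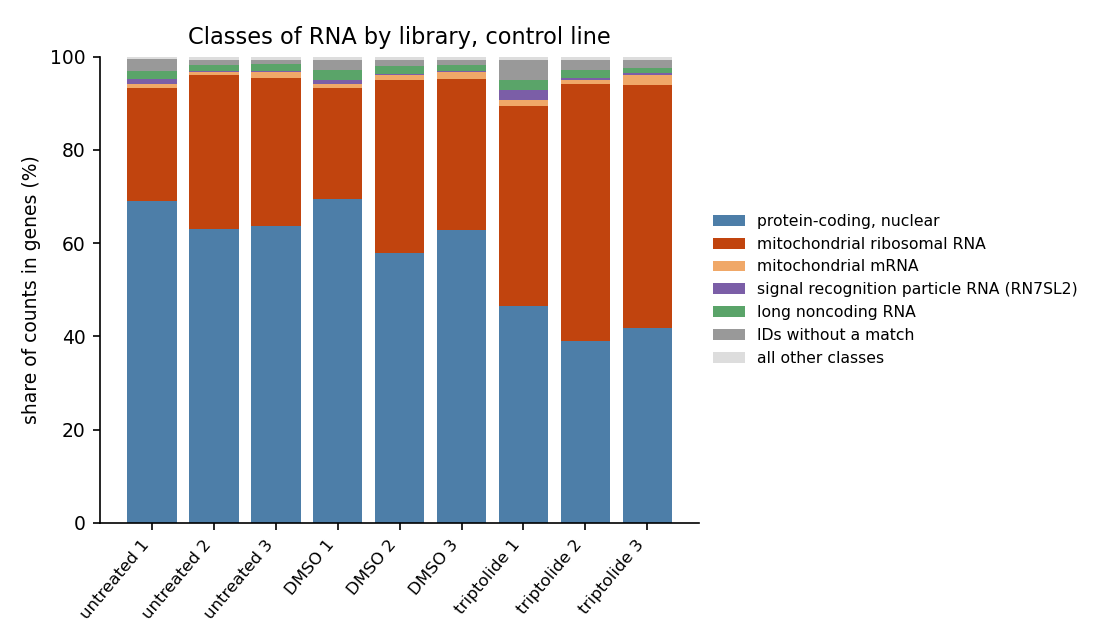
Share of counts in genes (y axis, %) taken by each class of RNA in the 9 libraries of the control line, 3 untreated, 3 with DMSO and 3 with triptolide. Mitochondrial ribosomal RNA took 23.7 to 37.1% with DMSO and 42.7 to 55.2% with triptolide.

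With the replicate number as a block, edgeR called 11090 of 21285 genes (52.1%) at an adjusted p under 0.05. Of these 5555 were higher with triptolide (26.1% of genes tested) and 5535 lower (26%). All shares of members below are to be read against these 3 values and against the shares at the members' own level. By mean DMSO level, lower and higher genes made up 8.6 and 35.0% under 1 CPM and 27.1 and 20.6% at 1 to 10 CPM. They made up 41.3 and 19.7% at 10 to 100 CPM and 29.2 and 37.55% over 100 CPM. Among nuclear protein-coding genes with a mean of 1 CPM or more over both treatments 35.2% were lower and 23.8% higher. Changes reached 2-fold for 3058 higher and 2959 lower genes, and 8-fold for 1021 and 237. The 3 libraries of one treatment lay entirely above the other 3 for 72.8% of the higher and 77.3% of the lower calls. Among all 21285 genes tested, called or not, this held for 4448 with a rise and 4723 with a fall. Calls and overlap rest on the same libraries, so these shares are no separate support. Without the block 3162 higher and 3403 lower genes passed. The split depended on the scaling, with 2183 higher and 10351 lower genes with total counts and 1544 and 9912 with the mitochondrial mRNAs as the standard. In all 4 other scalings together, 5124 of the lower genes and 1540 of the higher genes were called in the same direction. The vehicle left no such trace, since DMSO against untreated cells of this line gave 0 calls by edgeR (0%), with 274 genes at an unadjusted p under 0.05, and 0 by DESeq2.

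**Figure D2:**
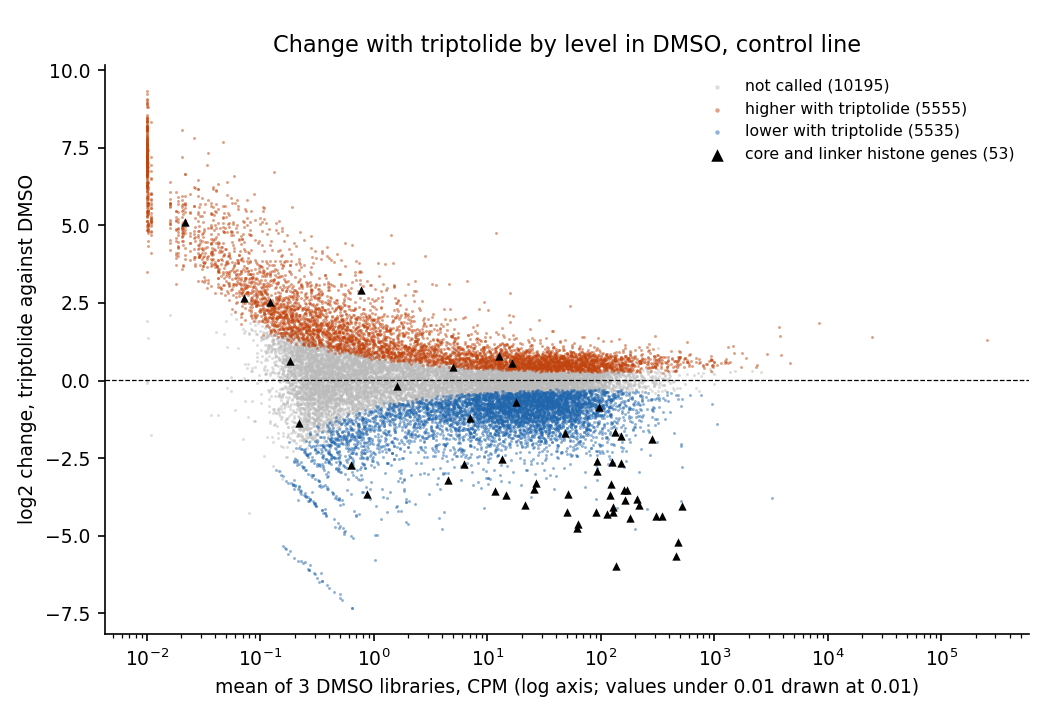
Log2 change with triptolide (y axis) against the mean level of the 3 DMSO libraries (x axis, CPM, log scale) for the 21285 genes tested, with 5555 called higher (orange), 5535 called lower (blue) and the 53 core and linker histone genes as black triangles. Large rises lie at low DMSO levels, while the histone genes above 5 CPM lie mostly below the dashed line at the median of all genes, 0.03; the axes share the DMSO values.

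The subunits of TFIIH, the complex that triptolide acts on, changed in both directions. Of 9 tested 3 rose and 5 fell, with a median of -0.37, and with total counts or with the mitochondrial mRNAs as the standard 0 rose and 6 fell. ERCC3, which encodes the target XPB (chromosome 2, 128014866 to 128051742, GRCh37), stood at 31.4, 32.9 and 35.2 CPM in the DMSO libraries and 17.9, 24.7 and 21.8 CPM in the triptolide libraries. The groups did not overlap, and the log2 change was -0.63 ± 0.13 (SE) (adjusted p = 0.000357). CDK7, the kinase of TFIIH that phosphorylates the polymerase tail, went from 27.8, 42.5 and 26.5 CPM to 9.47, 12.04 and 9.21 CPM, a change of -1.64 ± 0.16 (SE) (adjusted p = 5.62e-08). GTF2H5, the smallest subunit, was higher in every triptolide library, at 40.1, 50.2 and 32.5 CPM against 23.4, 23.2 and 22.7 CPM. The count of calls among TFIIH subunits rested on single libraries, falling from 8 to 5 without DMSO replicate 1 or 2 and to 4 without replicate 2 of all groups, and it was 1 and 3 (higher and lower) without the block.

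POLR2A, which encodes the largest and catalytic subunit of RNA polymerase II (chromosome 17, 7387685 to 7417933), had 33.6, 21.3 and 30.7 CPM in the DMSO libraries and 117, 107 and 98.7 CPM in the triptolide libraries. Every triptolide library was above every DMSO library, by 1.95 ± 0.35 (SE) (adjusted p = 0.000107). Among 11 polymerase II subunits 7 rose and 0 fell, with a median of 0.56, while with total counts as with the mitochondrial mRNAs as the standard 1 rose and 3 fell. Leaving out triptolide replicate 1 cut these 7 calls to 3, leaving out triptolide replicate 3 to 4, leaving out replicate 3 of all groups to 3, and without the block 2 rose and 0 fell. NELFA, a subunit of the factor that holds the polymerase paused near the start, fell from 31.2, 24.6 and 32.2 CPM to 7.36, 5.17 and 9.11 CPM (-2.04 ± 0.19 (SE), adjusted p = 4.42e-08). LARP7, which stabilises the 7SK RNA that restrains the elongation kinase P-TEFb, fell by 2.92-fold. Of 19 pausing and P-TEFb genes 2 rose and 8 fell, and without the block 1 rose and 3 fell. With total counts, as with the mitochondrial mRNAs as the standard, 0 rose and 17 fell.

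Mediator, the complex that carries signals from enhancers to the polymerase, had mostly lower messages. Of its 30 subunits 20 fell and 5 rose, with a median of -0.87, and in none of the 4 other scalings did fewer than 19 fall. MED13L, a paralogue in the kinase module, was among the messages that lost the most CPM, from 429, 626 and 473 CPM with DMSO to 75.0, 133 and 157 CPM with triptolide (-2.10 ± 0.21 (SE), adjusted p = 1.12e-07). MED22 and MED8, subunits of the head module, changed by -2.12 ± 0.13 (SE) and -1.80 ± 0.17 (SE). MED29 rose by 0.55 on the log2 scale, a change that lay below 0 with total counts. TFIID and its TBP-associated factors had 9 lower and 4 higher members of 24, among them TAF4 at -1.66 and TAF7 at -1.21, while 1 rose and 18 fell with total counts and 0 rose and 18 fell with the mitochondrial mRNAs as the standard.

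Histone messages of S phase had the lowest medians of all lists. These genes supply core and linker histones during DNA replication, mostly from intronless genes in clusters on chromosome 6, and their messages end in a conserved stem-loop in place of a poly(A) tail. Of 46 core histone genes tested 38 fell and 4 rose, with a median log2 change of -3.32 against 0.03 for all genes, and at least 38 fell and at most 4 rose in each of the 4 other scalings. Summed over the 53 core and linker histone genes, the level went from 4888, 6113 and 5897 CPM with DMSO to 502, 618 and 756 CPM with triptolide. The sums of the 2 treatments thus lie far apart.

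H1-3, a linker histone (chromosome 6, 26234440 to 26235215), had the largest fall among protein-coding genes with 5 CPM or more with DMSO and no overlap between treatments, with 118, 181 and 111 CPM in the DMSO libraries and 1.23, 2.76 and 2.60 CPM in the triptolide libraries. The change was -5.96 ± 0.26 (SE) (adjusted p = 2.95e-12). H1-5 went from 359, 503 and 525 CPM to 4.27, 8.80 and 16.8 CPM (-5.67 ± 0.33 (SE)), and H1-4 from 340.1, 583 and 521 CPM to 6.39, 11.2 and 26.6 CPM (-5.20 ± 0.39 (SE)). H1-2 changed by -4.06 ± 0.14 (SE) (adjusted p = 1.43e-13), and no triptolide library of these 4 genes reached any DMSO library. Of the 7 linker histone genes tested 5 fell and 1 rose, with a median of -4.06. The same numbers fell and rose in each of the 4 other scalings, and without the block 4 fell and 1 rose. H1-1 was the linker histone that rose, from 2 counts over the DMSO libraries to 51 over the triptolide libraries. Among core histones H2BC4 fell from 240.5, 405 and 399.6 CPM to 9.26, 17.4 and 26.4 CPM (-4.37 ± 0.23 (SE)), H4C5 from 305, 302 and 302 CPM to 6.85, 14.7 and 26.8 CPM and H2AC8 from 180, 219 and 219 CPM to 9.94, 14.8 and 20.4 CPM. H2BC14 and H3C12 changed by -4.75 ± 0.31 (SE) and -4.62 ± 0.31 (SE). H1-10, a replication-independent linker histone, stood at 19.7, 14.4 and 15.3 CPM and 33.0, 10.3 and 32.5 CPM, which did not pass (adjusted p = 0.196).

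The 3′ ends of 9 of these messages are printed because the stem-loop marks this class of message. Each line gives 30 bases of the 3′ UTR of the canonical transcript in GENCODE release 44 on GRCh37, 5′ to 3′ on the strand of the gene. The 8 searched letters CTTTTCAG, the middle part of the stem-loop, are in capitals.
H1-2 (chr6:26055968-26055997, minus strand): aaacccaaaaggctCTTTTCAGagccacca
H1-3 (chr6:26234440-26234469, minus strand): attttaaacggctCTTTTCAGagccaccca
H1-4 (chr6:26157314-26157343, plus strand): caacccaaaggctCTTTTCAGagccaccca
H1-5 (chr6:27834570-27834599, minus strand): agccccaaaggctCTTTTCAGagccaccca
H2BC14 (chr6:27783238-27783267, plus strand): caccccaaaggctCTTTTCAGagccgtcca
H3C12 (chr6:27858093-27858122, minus strand): gcttccaaaggctCTTTTCAGagccactta
H2AC8 (chr6:26217636-26217665, plus strand): gaaaccaaaggctCTTTTCAGagccaccca
H4C5 (chr6:26205220-26205249, plus strand): caaatcaaaggccCTTTTCAGggccgccca
H2BC6 (chr6:26184429-26184458, plus strand): aaacccaaaggctCTTTTCAGagccactca
In all 9 the letters end 8 or 9 bases before the end of the transcript. Read on the transcript strand only, they were present in the 3′ UTR of 38 of the 53 histone genes tested (71.7%) and of 8.01% of the 14591 nuclear protein-coding genes with a 3′ UTR. Of the 38 histone genes with these exact letters 34 fell and 2 rose, with a median of -3.52. Of the 15 without them 9 fell and 3 rose, with a median of -1.22. The 1131 other genes that hold the letters had a median of -0.15, with 410 lower and 254 higher. H2BC6, the last line, holds the same letters and rose from 0.359, 1.13 and 0.838 CPM to 5.03, 7.35 and 4.10 CPM (2.93 ± 0.34 (SE), adjusted p = 7.23e-07). It was weakly expressed with DMSO, like most histone genes that rose. Of the 42 histone genes at 5 CPM or more with DMSO 40 fell and 1 rose, and of the 11 below that level 3 fell and 4 rose. Histone genes are near-identical copies of each other, so counts could be split or lost among them where reads do not align to one place.

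Transcription factors that define luminal breast cells fell together. Of 20 factors 17 fell and 1 rose, with a median of -1.25, and 17 or 19 fell in each of the 4 other scalings. XBP1, a factor of secretory and luminal cells, had 424, 573 and 532 CPM in the DMSO libraries and 23.5, 51.5 and 32.7 CPM in the triptolide libraries (-3.87 ± 0.16 (SE), adjusted p = 9.03e-13). FOXA1, the pioneer factor that opens chromatin for the estrogen receptor, went from 84.1, 91.1 and 100.5 CPM to 9.77, 10.3 and 9.61 CPM (-3.21 ± 0.16 (SE)). ESR1, the estrogen receptor itself, went from 54.7, 51.5 and 45.1 CPM to 16.7, 16.7 and 14.9 CPM (-1.65 ± 0.12 (SE), adjusted p = 2e-09). In all 3 genes the lowest DMSO library was above the highest triptolide library. CREB3L4 was the factor that rose, by 0.52 ± 0.14 (SE), and it did not pass without the block (adjusted p = 0.3). With total counts or the mitochondrial mRNAs as the standard its change lay below 0. Without the block 12 factors fell and 0 rose.

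The targets of the estrogen receptor went both ways, with 15 of 30 lower, 7 higher and a median of -0.38 on the TMM scale. Under total counts or the mitochondrial mRNAs as the standard 1 rose and 20 fell. SIAH2, a ubiquitin ligase, fell from 88.7, 136 and 114 CPM to 20.1, 38.2 and 27.7 CPM (-1.995 ± 0.14 (SE)), and KCNK5, a potassium channel, from 105, 41.7 and 49.9 CPM to 21.9, 11.8 and 12.3 CPM (-2.04 ± 0.16 (SE)). AREG, the ligand amphiregulin, changed by -2.77 ± 0.33 (SE). TFF3, a secreted trefoil peptide, had 10.9, 10.5 and 5.05 CPM against 4.47, 7.11 and 2.26 CPM, with 1 triptolide library inside the DMSO range, and did not pass without the block (adjusted p = 0.261). AGR3 had 0 counts in the DMSO libraries and 27 in the triptolide libraries, at least 14.8-fold higher when 3 counts are taken as the limit for the DMSO group. PRLR, the prolactin receptor, was the nuclear message with the second largest loss in CPM, from 859, 1102 and 1186 CPM to 264, 419 and 552 CPM (-1.40 ± 0.19 (SE)). Surface and keratin messages of the epithelium moved in both directions. CDH1, the adhesion protein E-cadherin, had 341, 522 and 385 CPM with DMSO and 505, 748 and 567 CPM with triptolide (0.55 ± 0.12 (SE)), which failed without the block (adjusted p = 0.0982) and lay below 0 with total counts. CLDN4, a tight junction claudin, fell (-1.71 ± 0.23 (SE)). Of 22 such genes 8 rose and 9 fell, with 11 calls in place of 17 without DMSO replicate 2 or without triptolide replicate 1, and 0 rose and 11 fell with total counts. The higher and lower members numbered, with no block, 2 and 5 here and 3 and 11 among receptor targets.

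Of the 14 luminal marker genes all 14 kept a mean of 1 CPM or more in untreated, DMSO and triptolide cells. Their summed level ran from 4774 to 5902 CPM with DMSO and from 3584 to 7440 CPM with triptolide. Calls among them numbered 5 higher and 8 lower. Without triptolide replicate 1 there were 8 calls in place of 13, and without the block 0 rose and 6 fell. With total counts 0 rose and 8 fell.

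**Figure D3:**
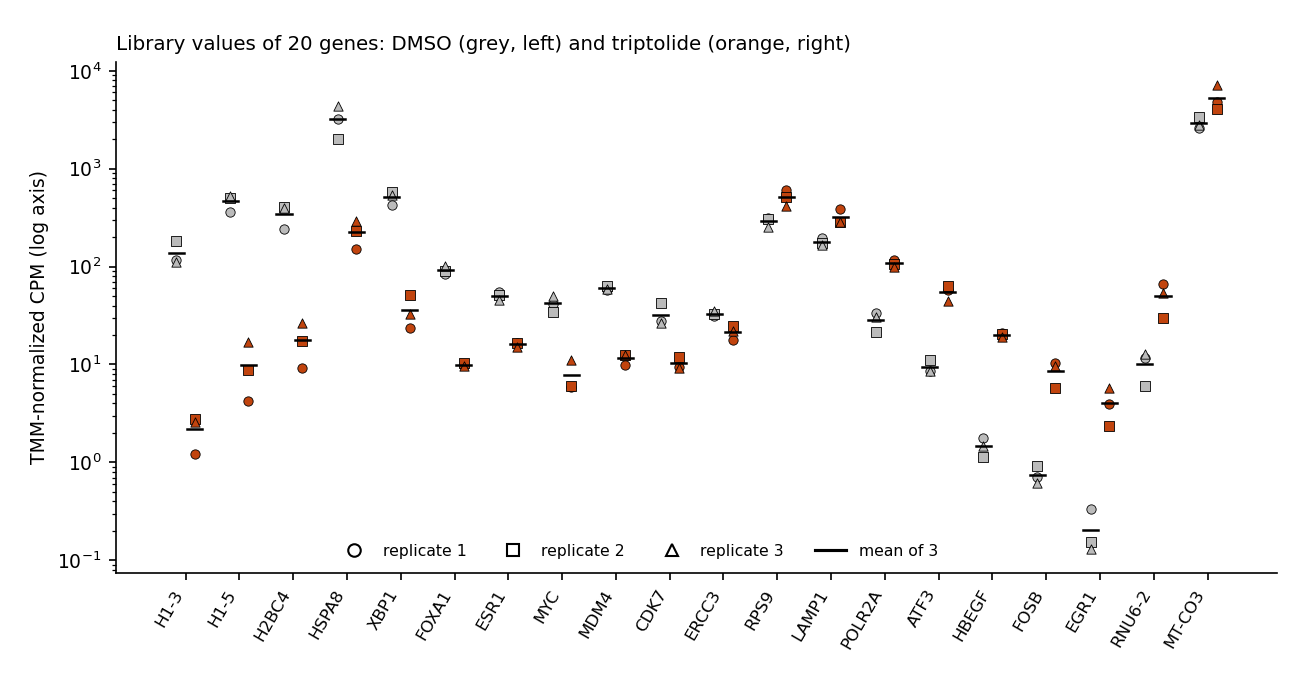
TMM-normalized CPM (y axis, log scale) of 20 genes in the 3 DMSO libraries (grey) and 3 triptolide libraries (orange), with marker shape for the replicate number and a bar at the mean of 3. H1-3 goes from 137 to 2.19 CPM and HBEGF from 1.46 to 20.2 CPM; the DMSO and triptolide values overlap in none of the 20.

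Messages of mitosis fell. Of 47 G2 and mitosis genes 37 fell and 1 rose, with a median of -0.89, and at least 35 fell in each of the 4 other scalings. TTK, the spindle checkpoint kinase, went from 39.3, 65.9 and 54.0 CPM to 7.11, 13.7 and 10.5 CPM (-2.37 ± 0.14 (SE), adjusted p = 1.05e-10). BUB1B, a checkpoint kinase at the kinetochore, changed by -2.28 ± 0.17 (SE), and ASPM, a spindle pole protein, by -2.12 ± 0.16 (SE), neither with overlap between treatments. CKS1B, a small binding partner of cyclin-dependent kinases, was the 1 member that rose (0.48 ± 0.17 (SE), adjusted p = 0.0247). Its triptolide value of replicate 2, 47.0 CPM, was below all DMSO values. It lost its call without the block (adjusted p = 0.12), and its change lay below 0 with total counts. In DNA replication the counts were 20 lower and 7 higher of 46, and the difference between the lists was not tested. Total counts gave 0 higher and 35 lower for replication and 0 and 43 for repair, and the mitochondrial mRNAs as the standard 0 and 30, and 0 and 38. POLD3, a subunit of DNA polymerase delta, went from 50.2, 65.0 and 60.5 CPM to 8.38, 19.2 and 11.01 CPM (-2.21 ± 0.19 (SE)), and RFC1, the large subunit of the clamp loader, from 97.4, 168 and 124 CPM to 26.8, 50.2 and 42.2 CPM (-1.72 ± 0.15 (SE)). In DNA repair 24 of 46 fell and 3 rose. TOPBP1, which activates the ATR checkpoint kinase, changed by -1.75 ± 0.14 (SE), ERCC6, which acts in transcription-coupled repair, by -1.71 ± 0.14 (SE), and WEE1, the kinase that delays mitosis, by -1.78 ± 0.17 (SE). PARP1, the poly(ADP-ribose) polymerase that senses breaks, stood at 238, 228 and 226 CPM and 345, 338 and 366 CPM (0.60 ± 0.10 (SE)), a change that lay below 0 with total counts. A fit with no block gave, as higher and lower members, 0 and 24 for mitosis, 3 and 11 for replication and 2 and 13 for repair.

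Regulators of growth and cell death moved both ways. MYC, a growth-promoting transcription factor, fell from 41.6, 34.7 and 50.2 CPM to 5.92, 6.04 and 11.2 CPM (-2.48 ± 0.17 (SE), adjusted p = 9.17e-10), while MXD1, which competes with MYC for their partner MAX, rose from 2.63, 3.91 and 2.55 CPM to 7.74, 11.3 and 7.41 CPM (1.54 ± 0.19 (SE)). MDM4 and MDM2, which hold p53 in check, changed by -2.39 ± 0.14 (SE) and -1.47 ± 0.14 (SE). MDM4 had 58.1, 63.4 and 59.6 CPM in the DMSO libraries and 9.90, 12.4 and 12.4 CPM in the triptolide libraries, groups that lie far apart. Of 28 p53 targets 8 rose and 8 fell, GADD45B among the first with 1.52 ± 0.17 (SE), and with total counts 3 rose and 18 fell. In the BCL2 family PMAIP1, the death-promoting protein NOXA, rose from 3.90, 6.04 and 3.997 CPM to 23.3, 29.2 and 15.7 CPM (2.29 ± 0.24 (SE), adjusted p = 2.32e-07). BCL2L1, which encodes the survival protein BCL-XL, fell from 62.7, 52.0 and 42.8 CPM to 16.4, 12.7 and 21.9 CPM (-1.62 ± 0.21 (SE)). In all, 3 of 15 rose and 4 fell, with 4 calls in place of 7 without DMSO replicate 2. Of 19 death receptor, caspase and inhibitor genes 2 rose and 7 fell, among them FAS, a death receptor, at -1.40 and BIRC2, an inhibitor of apoptosis, at -0.91. With total counts 1 rose and 9 fell in the BCL2 family and 1 rose and 13 fell in the last list. Of 12 genes of the MYC network 2 rose and 4 fell, against 1 rose and 6 fell with total counts. Without the block the higher and lower members numbered 1 and 2 for the BCL2 family and 2 and 4 for death receptors and caspases.

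The brakes of the G1 phase split as well. CDKN1B, the inhibitor p27, fell from 18.6, 32.8 and 22.9 CPM to 5.79, 6.33 and 4.86 CPM (-2.08 ± 0.17 (SE)), while CDKN2B, the inhibitor p15, rose from 1.602, 1.19 and 1.71 CPM to 14.2, 10.5 and 12.4 CPM (3.05 ± 0.22 (SE), adjusted p = 1.91e-09). E2F4, a repressor of cell cycle genes, changed by -2.06 ± 0.15 (SE). Of 29 G1 genes 8 rose and 9 fell, against 3 and 7 without the block and 2 and 15 with total counts.

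Chromatin enzymes, the CCR4-NOT complex and SR proteins were mostly lower, and the other RNA-handling lists less so. Histone methyltransferases and demethylases had 28 of 32 lower and 1 higher, with a median of -0.92, and at least 26 fell in each of the 4 other scalings. EZH2, the methyltransferase of Polycomb, went from 31.7, 39.7 and 45.3 CPM to 14.6, 15.9 and 17.7 CPM (-1.27 ± 0.13 (SE)), and KDM4A, a demethylase, changed by -1.23 ± 0.13 (SE). SETD1B, a methyltransferase of promoter histones, was the member that rose (1.04 ± 0.19 (SE)). The CCR4-NOT complex, which shortens poly(A) tails, had 14 of 18 lower, CNOT2 from 42.9, 58.1 and 50.1 CPM to 7.49, 12.8 and 9.66 CPM (-2.35 ± 0.13 (SE), adjusted p = 5.53e-11), and 2 higher. SR proteins, which choose splice sites, had 7 of 11 lower, with SRSF4 at -2.17 ± 0.14 (SE), SRSF6 at -1.28 ± 0.16 (SE) and SRSF3 at -1.30 ± 0.16 (SE). Of 16 proteins that bind 3′ UTRs 6 fell and 1 rose, with PUM2, which recruits CCR4-NOT, at -1.86 ± 0.22 (SE). Decapping, exosome and nonsense-mediated decay factors had 20 of 38 lower and 5 higher, with SMG9, a decay factor, from 28.5, 22.4 and 27.3 CPM to 2.33, 1.26 and 6.86 CPM, and with 14 to 16 calls in place of 25 without DMSO or triptolide replicate 1 or without replicate 1 or 3 of all groups. With total counts 0 rose and 15 fell among the proteins that bind 3′ UTRs and 0 rose and 30 fell among decay factors. For CCR4-NOT and SR proteins the lower members numbered 14 or 15 and 7 to 9 over all scalings. The higher and lower members numbered, with no block, 2 and 10 for CCR4-NOT and 2 and 9 for decay factors.

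Zinc finger genes with ZNF symbols, most of which encode repressors, formed the largest list. Of 478 tested 247 fell and 58 rose, with a median of -0.54, and between 235 and 369 fell in the 4 other scalings. ZNF772 went from 16.1, 17.98 and 16.3 CPM to 1.48, 3.19 and 1.95 CPM (-2.95 ± 0.19 (SE)), and ZNF45 from 15.2, 16.3 and 13.1 CPM to 1.86, 2.85 and 1.95 CPM (-2.75 ± 0.17 (SE)). ZNF425 ran against the list, from 3.35, 2.99 and 3.32 CPM to 27.03, 28.7 and 28.0 CPM (3.11 ± 0.18 (SE), adjusted p = 1.05e-10), with the 3 triptolide libraries within 2 CPM of each other. Clock genes had 9 of 19 lower, with PER2 at -1.44 and CLOCK at -1.09, and 2 higher, with CRY2 at 1.11. Receptors and effectors of TGF-β and BMP signals had 11 of 20 lower and 1 higher. BMPR1A, a BMP receptor, fell from 50.9, 68.8 and 57.0 CPM to 15.8, 24.5 and 16.2 CPM. In Notch, Hedgehog and Wnt pathways 8 of 30 fell (26.7%, near the 26% of all genes) and 2 rose. AXIN1, a scaffold of β-catenin breakdown, was at -1.82 and FZD4, a Wnt receptor, at -1.88. FZD6, of the same receptor family, rose from 2 counts over the DMSO libraries to 77 over the triptolide libraries, a ratio of 63.3 (95% exact interval 16.9 to 532). A fit with no block gave, as higher and lower members, 29 and 177 for zinc fingers and 1 and 5 for the clock. With total counts the lower members numbered 14 for the clock, 17 for TGF-β and 23 for Notch, Hedgehog and Wnt, and the higher ones 0, 0 and 1.

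**Figure D4:**
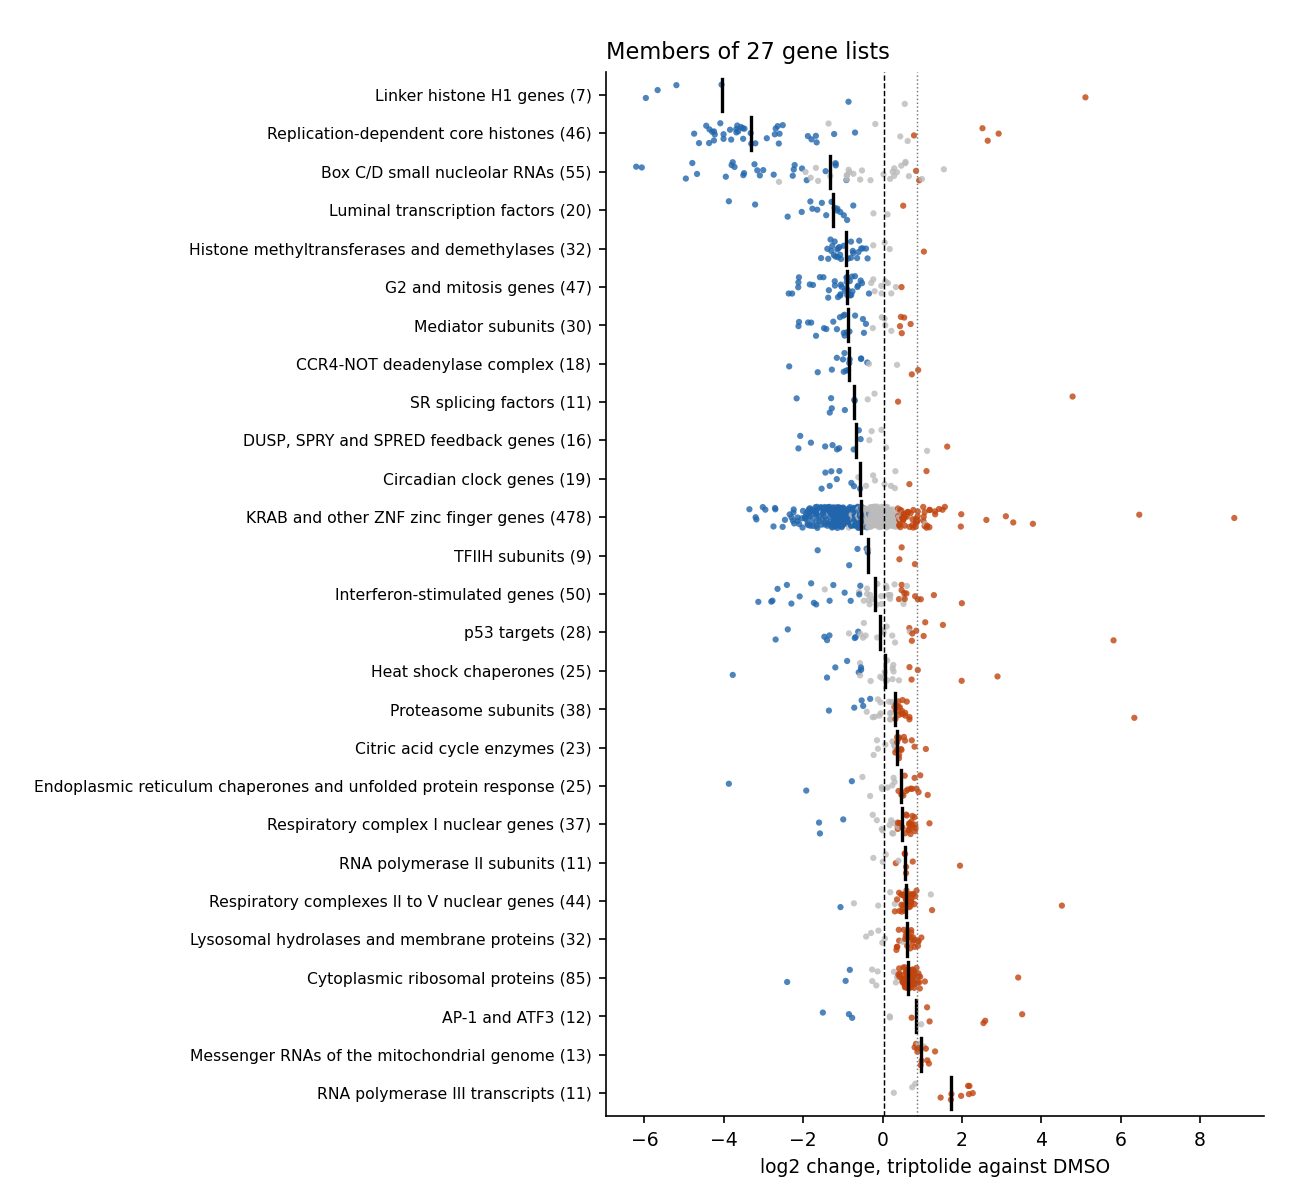
Log2 change with triptolide (x axis) of every tested member of 27 gene lists (rows, number tested in brackets), called higher in orange, called lower in blue and not called in grey, with a bar at the list's median. The dashed line marks the median of all genes, 0.03, and the dotted line at 0.87 marks the shift of that median between TMM and the mitochondrial mRNAs as the standard; the bars of ribosomal proteins (0.63) and lysosomal genes (0.62) lie between the lines.

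Stress genes did not move as a block. HSPA8, the constitutive HSP70 chaperone, lost more CPM than any other nuclear gene, with 3232, 2019 and 4334 CPM in the DMSO libraries and 152, 229.8 and 292 CPM in the triptolide libraries (-3.77 ± 0.22 (SE), adjusted p = 1.04e-10). HSPA2, an HSP70 of the testis, rose from 2.51, 1.56 and 2.96 CPM to 17.3, 14.6 and 19.8 CPM (2.90 ± 0.24 (SE)). Of 25 heat shock chaperones and factors 5 rose and 7 fell, and with total counts 2 rose and 17 fell. TRIB3, a target of ATF4 in the integrated stress response, fell from 51.2, 58.9 and 56.9 CPM to 10.2, 9.62 and 11.6 CPM (-2.40 ± 0.17 (SE)), whereas ATF3, a stress-induced factor, rose from 8.51, 11.1 and 8.57 CPM to 57.3, 63.2 and 44.1 CPM (2.54 ± 0.18 (SE), adjusted p = 1.38e-09). Of 28 ATF4 targets 6 rose and 9 fell. Without the block the higher and lower members numbered 2 and 3 for chaperones and 4 and 7 for ATF4 targets, which with total counts numbered 2 and 17. Of 20 NRF2 and metallothionein genes 7 rose and 4 fell, against 1 rose and 7 fell with total counts and 4 rose and 3 fell without the block. KEAP1, which marks NRF2 for breakdown, changed by -1.81 ± 0.18 (SE), and FTL, the ferritin light chain, by 1.06 ± 0.14 (SE).

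Immediate early genes, which answer growth signals within minutes and have short-lived messages, included large relative rises. FOSB, EGR1 and NR4A3 had DMSO means under 1 CPM, a level at which 35.0% of all genes rose. FOSB went from 0.717, 0.916 and 0.612 CPM to 10.2, 5.71 and 9.66 CPM (3.52 ± 0.42 (SE)), FOS from 1.65, 2.72 and 0.516 CPM to 10.2, 5.51 and 9.01 CPM (2.59 ± 0.44 (SE)) and EGR1 from 0.335, 0.153 and 0.129 CPM to 3.98, 2.37 and 5.71 CPM (4.34 ± 0.50 (SE), adjusted p = 6.24e-07). NR4A3, an orphan nuclear receptor, rose from 0.143, 0.275 and 0.0322 CPM to 2.33, 3.53 and 2.45 CPM (4.21 ± 0.38 (SE)). JUND, a partner of FOS, went the other way, from 18.3, 20.3 and 13.3 CPM to 6.34, 5.51 and 6.36 CPM (-1.50 ± 0.30 (SE)), and so did ID3, an inhibitor of differentiation factors (-2.13 ± 0.31 (SE)). Of 12 AP-1 genes 6 rose and 3 fell, and in the list of EGR, IER, KLF and related genes 8 rose and 7 fell of 23. With the mitochondrial mRNAs as the standard these counts were 3 and 3, and 3 and 9. Without the block they were 4 and 1, and 5 and 4.

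Among feedback inhibitors of growth factor signals DUSP1, a MAP kinase phosphatase, rose from 2.70, 2.41 and 1.51 CPM to 7.32, 6.43 and 6.66 CPM (1.63 ± 0.25 (SE)), while 10 of 16 members fell, SPRED1 by 3.49-fold and SPRY1 by 4.21-fold. Leaving out replicate 1 of all groups gave 6 calls in place of 11, and omitting the block 1 and 5. HBEGF, a ligand of the EGF receptor, was the clearest rise among ERBB genes, with 1.77, 1.13 and 1.48 CPM in the DMSO libraries and 20.9, 20.6 and 18.9 CPM in the triptolide libraries (3.80 ± 0.30 (SE), adjusted p = 5.68e-09). TGFA, another ligand, rose by 0.87 ± 0.13 (SE), and EGFR, their receptor, changed by -1.11 ± 0.19 (SE). With the mitochondrial mRNAs as the standard TGFA was at 0.02. Of 12 ERBB receptors and ligands 4 rose and 4 fell, against 2 rose and 7 fell with total counts and 3 rose and 2 fell without the block.

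Inflammatory and interferon genes moved in both directions. RELA, the NF-κB subunit p65, fell from 76.1, 64.6 and 67.5 CPM to 24.3, 22.4 and 33.0 CPM (-1.40 ± 0.16 (SE)), and its inhibitor NFKBIA from 72.1, 74.2 and 48.4 CPM to 28.8, 32.1 and 24.9 CPM (-1.17 ± 0.14 (SE)). TNFAIP3, the ubiquitin editor A20, rose from 2.68, 3.15 and 1.26 CPM to 5.63, 7.49 and 6.71 CPM (1.54 ± 0.31 (SE)). Of 20 NF-κB genes 4 rose and 8 fell, against 2 rose and 3 fell without the block, 2 rose and 14 fell with total counts and 1 rose and 13 fell with the mitochondrial mRNAs as the standard. IRF1, an interferon-induced factor, rose from 6.67, 6.69 and 2.32 CPM to 22.6, 22.5 and 14.2 CPM (1.999 ± 0.25 (SE)), and IFIT5, an RNA-binding antiviral protein, fell from 27.2, 50.2 and 7.03 CPM to 5.54, 7.01 and 1.85 CPM (-2.41 ± 0.22 (SE)). Replicate 3 was the lowest in both treatments for both genes. Of 50 interferon-stimulated genes 11 rose and 16 fell. Without the block 1 rose and 3 fell, and with total counts 1 rose and 30 fell. Of 14 SOCS and STAT genes 2 rose and 4 fell, against 0 rose and 9 fell with total counts and 1 rose and 3 fell without the block. Among 22 hypoxia-inducible genes 1 rose and 9 fell (0 rose and 2 fell without the block and 0 rose and 16 fell with total counts), the rise being NDRG1, whose DMSO values of 9.85, 190.4 and 4.29 CPM spanned its triptolide values of 34.4, 124 and 26.6 CPM and whose change was -0.174 against the median of all genes without the block.

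Cytoplasmic ribosomal protein messages, which are long-lived and abundant, rose against the rest of the library. Of 85 genes 74 rose and 3 fell on the TMM scale, with a median of 0.63, whereas with total counts 2 rose and 7 fell (median 0.005) and with the mitochondrial mRNAs as the standard 1 rose and 7 fell (median -0.24). RPS9, a protein of the small subunit, went from 312, 307 and 256 CPM to 602, 511 and 417 CPM (0.80 ± 0.12 (SE), adjusted p = 1.47e-05). RPL36A fell from 7.96, 5.01 and 6.54 CPM to 1.18, 1.45 and 0.951 CPM (-2.40 ± 0.31 (SE)). Its exons are shared with a read-through gene, so reads could be split between them. Without the block 49 rose and 1 fell. RPL3L, a muscle paralogue, rose from 0.502, 0.550 and 0.451 CPM to 6.60, 4.25 and 5.51 CPM (3.42 ± 0.33 (SE)). Mitochondrial ribosomal proteins did not share the rise, with 16 higher and 19 lower of 78 and a median of -0.03. With total counts 0 rose and 57 fell, and without the block 4 rose and 8 fell. The difference between both lists was not tested.

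Nuclear messages of the respiratory chain also rose on the TMM scale. For complexes II to V 37 of 44 rose and 1 fell (median 0.60), and for complex I 23 of 37 rose and 3 fell (median 0.50). With total counts these were 2 higher and 4 lower, and 1 and 8. SDHC, a membrane anchor of complex II, went from 55.0, 56.7 and 55.5 CPM to 107, 91.7 and 94.5 CPM (0.81 ± 0.12 (SE)), NDUFB5 of complex I from 83.7, 97.5 and 85.9 CPM to 152, 189 and 133 CPM (0.82 ± 0.12 (SE)), and ATP5F1E of the ATP synthase from 122, 90.6 and 114 CPM to 244, 144 and 170.5 CPM (0.76 ± 0.13 (SE)). NDUFV2, which holds an iron-sulfur cluster of complex I, fell from 5.19, 5.13 and 6.19 CPM to 1.10, 1.89 and 2.50 CPM (-1.60 ± 0.29 (SE)). Leaving out replicate 3 of all groups gave 25 calls for complexes II to V in place of 38. The higher and lower members numbered, with no block, 19 and 1 for complexes II to V and 10 and 1 for complex I.

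Lysosomal hydrolases and membrane proteins showed the same pattern, with 26 of 32 higher, 0 lower and a median of 0.62 on the TMM scale, but with total counts as with the mitochondrial mRNAs as the standard at most 1 rose and 5 fell. PSAP, the precursor of sphingolipid activators, went from 278, 306 and 205 CPM to 574, 588 and 395 CPM (0.98 ± 0.13 (SE)), CTSB, a cysteine protease, from 74.6, 82.9 and 69.8 CPM to 154, 143 and 129 CPM (0.91 ± 0.12 (SE)) and LAMP1, a membrane glycoprotein, from 198, 176 and 167 CPM to 384, 285 and 285 CPM (0.81 ± 0.13 (SE)). Citric acid cycle enzymes had 15 of 23 higher and 0 lower, with IDH1 at 1.09 ± 0.14 (SE), against 1 higher and 5 lower with total counts. Without replicate 3 of all groups the calls numbered 17 in place of 26 for lysosomal genes and 5 in place of 15 for the cycle, and without triptolide replicate 3 alone 9 for the cycle. In the secretory pathway 14 of 25 chaperone and unfolded protein response genes rose, SEC61B of the translocon by 0.86 ± 0.12 (SE), and 3 fell, among them XBP1 and HERPUD1 (-1.92 ± 0.14 (SE)), both induced by the unfolded protein response. With total counts 1 rose and 9 fell. Proteasome subunits had 19 higher and 5 lower of 38, PSMC6 of the base at -1.35 ± 0.15 (SE), and between 9 and 15 calls in place of 24 without DMSO replicate 1 or 3, without triptolide replicate 1, or without replicate 1 or 3 of all groups. With total counts 1 rose and 18 fell among them. A fit with no block gave, as higher and lower members, 12 and 0 for lysosomes, 5 and 0 for the cycle, 8 and 3 for chaperones and 6 and 1 for the proteasome.

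Cholesterol synthesis genes and targets of SREBP had 12 of 29 higher and 7 lower, with INSIG1, which retains SREBP in the endoplasmic reticulum, from 58.8, 71.6 and 76.6 CPM to 21.9, 27.3 and 32.5 CPM (-1.34 ± 0.16 (SE)) and with 0 higher and 12 lower with total counts. Translation factors divided into 14 higher and 17 lower of 65, EIF3A, the largest subunit of eIF3, falling from 287, 301 and 302 CPM to 75.4, 136 and 124 CPM (-1.45 ± 0.16 (SE)). Glycolysis enzymes had 5 higher and 3 lower of 19. Here PFKFB3, which makes the activator of phosphofructokinase, fell (-1.10 ± 0.23 (SE)) and TPI1, triosephosphate isomerase, rose (0.74 ± 0.17 (SE), above 0 with total counts but below 0 with the mitochondrial mRNAs as the standard). Without replicate 1 of all groups glycolysis had 5 calls in place of 8, and without replicate 3 it had 4. Aminoacyl-tRNA synthetases had 3 higher and 4 lower of 20, WARS1, which charges tryptophan, at 0.62 ± 0.12 (SE). Their 7 calls became 3 or 4 without DMSO replicate 1 or 2, without triptolide replicate 1, or without replicate 1, 2 or 3 of all groups. With total counts 39 translation factors, 7 glycolysis enzymes and 17 synthetases fell and 0 rose. Without the block the higher and lower members numbered 3 and 3 for cholesterol, 1 and 8 for translation, 1 and 1 for glycolysis and 2 and 0 for synthetases.

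RNAs made by other polymerases rose further than the median message. Of 11 tested RNA polymerase III transcripts 8 rose and 0 fell, with a median of 1.74, and 8 rose with total counts and 5 with the mitochondrial mRNAs as the standard, as without the block. RNU6-2, a copy of the U6 spliceosomal RNA, went from 11.6, 5.98 and 12.8 CPM to 66.2, 29.7 and 53.2 CPM (2.27 ± 0.21 (SE), adjusted p = 2.79e-08), and RNU6-8 from 2.08, 2.47 and 5.45 CPM to 12.5, 11.5 and 18.1 CPM (2.16 ± 0.20 (SE)). RN7SL2, an RNA of the signal recognition particle, had 6815, 2612 and 1663 CPM in the DMSO libraries and 26540, 8157 and 5105 CPM in the triptolide libraries. Each triptolide library was above the DMSO library of its number, but the treatments overlapped across numbers, and RN7SL2 passed with the block (1.74 ± 0.22 (SE), adjusted p = 2.67e-06) and not without it (adjusted p = 0.12). U6 and 7SL exist in many near-identical copies, so their counts hold only reads placed at these copies.

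Of the 13 mRNAs of the mitochondrial genome 11 rose on the TMM scale and 0 fell, with a median of 0.96, with 1 higher with total counts and 5 higher without the block. MT-CO3, a core subunit of cytochrome oxidase, had 2605, 3376 and 2786 CPM in the DMSO libraries and 4765, 4049 and 7104 CPM in the triptolide libraries (0.84 ± 0.20 (SE), adjusted p = 0.00141). It was not called with total counts or with the mitochondrial mRNAs as the standard. Its change against the median of all genes was 0.812, and it was 0.525 without triptolide replicate 3 and 0.507 without replicate 3 of all groups. Calls among the 13 numbered 7 without DMSO replicate 1, 6 without triptolide replicate 3 and 6 without replicate 3 of all groups. The 2 mitochondrial ribosomal RNAs rose by 1.31 ± 0.17 (SE) for MT-RNR2, of the large subunit, and 1.41 ± 0.29 (SE) for MT-RNR1, of the small subunit, and neither was called with the mitochondrial mRNAs as the standard.

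Among small RNAs made by RNA polymerase II or cut from its introns, box C/D and spliceosomal RNAs were more often lower than higher, and box H/ACA and Cajal body RNAs were split. Box C/D small nucleolar RNAs, which guide methylation of ribosomal RNA, had 25 of 55 tested lower and 2 higher, with a median of -1.32, of 389 IDs in the files. SNORD14E, in an intron of HSPA8, went from 3.71, 1.92 and 6.25 CPM to 0.169, 0.145 and 0.1001 CPM (-4.79 ± 0.45 (SE)), and SNORD12B from 4.23, 2.41 and 4.74 CPM to 0.634, 0.0967 and 0.350 CPM (-3.49 ± 0.34 (SE)). Leaving out replicate 1 of all groups gave 12 calls in place of 27. Of 10 spliceosomal RNAs made by RNA polymerase II 4 fell and 0 rose, with RNU5D-1 at 124 counts over the DMSO libraries and 3 over the triptolide libraries, a ratio of 25.2 (95% exact interval 8.41 to 124). Box H/ACA and Cajal body RNAs had 13 higher and 12 lower of 69 with a median of 0.41, and 14 calls in place of 25 without DMSO replicate 1 and 13 without replicate 1 of all groups. SCARNA7 among them went from 168, 320.5 and 162 CPM to 415, 705 and 289.5 CPM (1.09 ± 0.18 (SE)), with overlap between treatments. With total counts 2 of this list rose and 19 fell, and without the block 1 rose and 8 fell. Without the block 0 rose and 17 fell among box C/D RNAs. Reads of an intron-encoded RNA and of unspliced RNA of its host cannot be told apart in these counts.

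Host genes and nuclear noncoding RNAs differed from each other. SNHG1, a host of box C/D RNAs, fell from 170, 136 and 197 CPM to 34.5, 27.7 and 42.3 CPM (-2.27 ± 0.13 (SE)), and SNHG5 rose from 52.0, 68.2 and 48.6 CPM to 117, 122 and 79.0 CPM (0.91 ± 0.15 (SE)). NEAT1, the scaffold of paraspeckles, fell from 548, 578 and 431 CPM to 116, 94.2 and 43.4 CPM (-2.78 ± 0.31 (SE), adjusted p = 3.85e-07). TERC, the RNA of telomerase, was higher in every triptolide library, at 73.9, 64.2 and 59.8 CPM against 28.5, 34.9 and 26.98 CPM (1.13 ± 0.20 (SE)). In all, 8 of 30 host genes rose and 10 fell, with 1 and 16 with total counts and 3 and 6 without the block. Among 19 regulatory noncoding RNAs 3 rose and 7 fell, and 3 and 3 did so without the block.

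The largest relative rises belonged to genes that were nearly silent with DMSO. Of the 1021 genes at least 8-fold higher 1004 had a DMSO mean under 1 CPM, 603 were protein-coding, and the median level was 0.0369 CPM with DMSO and 0.915 CPM with triptolide. Called in the same direction under all 4 other scalings were 1019 of them. 65 of the 1021 reached 5 CPM with triptolide. Of all 21285 genes tested 7213 had a DMSO mean under 1 CPM. A gene near 0 with DMSO could pass the filter on low counts only through other libraries where it was higher. The low DMSO level of the large rises is therefore set in part by the filter. Large falls also lay mostly at low levels. Of the 237 genes at least 8-fold lower 142 had a DMSO mean under 1 CPM, and 29 were histone genes. The median level of these 237 was 0.586 CPM with DMSO and 0.0328 CPM with triptolide.

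The protein-coding genes with the largest rises are known from many tissues. MGAM2, a maltase-glucoamylase of the gut, had 0, 0.0305 and 0 CPM in the DMSO libraries and 6.09, 7.93 and 4.05 CPM in the triptolide libraries, which is 1 count over the DMSO libraries and 389 over the triptolide libraries, a ratio of 639 (95% exact interval 114 to 25300). MOBP, a myelin protein of oligodendrocytes, had 2 and 398 counts, a ratio of 327 (95% exact interval 89.9 to 2710), and PAPPA2, a placental protease, 3 and 447 counts, a ratio of 245 (83.2 to 1190). TG, the thyroid hormone precursor thyroglobulin, went from 0.0478, 0.0611 and 0.0322 CPM to 14.8, 8.46 and 8.31 CPM (7.70 ± 0.54 (SE), adjusted p = 1.14e-09). ADCY10, a soluble adenylyl cyclase, went from 0.0478, 0.183 and 0.0322 CPM to 5.71, 8.41 and 3.20 CPM (6.00 ± 0.46 (SE)), and FLNC, a filamin of muscle, from 0.0956, 0.0305 and 0.193 CPM to 9.14, 3.05 and 3.65 CPM (5.57 ± 0.54 (SE)). MGAM, the neighbour of MGAM2 on chromosome 7, had 9.52, 11.4 and 6.21 CPM against 0.0717, 0.305 and 0.193 CPM. These genes were picked for the largest changes among called genes without overlap between treatments, so their lack of overlap is no separate finding. None lost its call when a library was left out, which the choice of the largest changes favours.

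Some marker genes of cell types that a breast line should lack were part of this gain. Of 14 leukocyte markers 3 had a mean of 1 CPM or more with DMSO and 7 with triptolide, and 4 and 1 had no count. ITGAM, an integrin of myeloid cells, went from 0.191, 0.0305 and 0.0967 CPM to 5.96, 4.01 and 5.36 CPM (5.59 ± 0.45 (SE)), and CD14, a myeloid receptor, had 1 and 74 counts over the groups, a ratio of 122 (95% exact interval 21.2 to 4870). PTPRC, the pan-leukocyte marker CD45, had 0 counts with DMSO and 10 with triptolide, and the myeloid marker CD68 had 2 and 0. The T cell marker CD3D had 0 and 3 counts, the B cell marker MS4A1 0 and 10 and the myeloid adaptor TYROBP 0 and 1. Most leukocyte counts came from the antigen presentation genes HLA-DRA, with 10909 and 10383 counts, and CD74, with 6103 and 5767, which epithelial cells can also express. The leukocyte list summed to between 122.7 and 208.2 CPM with DMSO and between 180.9 and 365 CPM with triptolide, and 6 of the 7 that could be tested rose, against 3 higher and 1 lower with total counts. Endothelial markers summed to between 1.61 and 3.36 CPM and between 4.74 and 10.0 CPM. TEK, an endothelial receptor, had 0 and 68 counts, at least 37.2-fold higher. Of the other endothelial markers VWF had 184 and 238 counts and CLDN5 85 and 148, while CDH5 had 1 and 2, KDR 0 and 2 and EMCN 0 and 7. Of 11 fibroblast markers 2 had a mean of 1 CPM or more with DMSO and 3 with triptolide, and FAP, a fibroblast protease, had 1 and 94 counts, a ratio of 154 (95% exact interval 27.1 to 6160), while DCN, a matrix proteoglycan, had 0 and 4 and LUM 0 and 0. FN1, the matrix protein fibronectin, fell from 635 to 229 counts (-0.77 ± 0.23 (SE)), and of 6 fibroblast markers tested 2 rose and 1 fell. Basal or myoepithelial markers summed to 92.9 to 97.9 CPM with DMSO and to 100.2 to 134 CPM with triptolide, with 4 higher and 1 lower of 9, and with 2 or 3 calls when a library or a replicate number was left out, except for DMSO replicate 2 and triptolide replicate 2. With total counts 1 rose and 2 fell among the basal markers, and with the mitochondrial mRNAs as the standard 0 rose and 2 fell. Fibroblast calls numbered 5 in place of 3 without triptolide replicate 2. Without the block 3 leukocyte, 1 endothelial, 2 fibroblast and 2 basal markers rose, and 1 fibroblast and 1 basal marker fell. The share of reads that the counting placed in no annotated feature was lower in each pair, from 11, 7.31 and 9.4% with DMSO to 7.44, 6.50 and 4.99% with triptolide. Such reads can lie in introns as well as between genes. The part of other cells or of stray DNA in these values was not tested.

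Across the 12402 nuclear protein-coding genes with a mean of 1 CPM or more, which had a median of -0.11, the change went with features of the transcript, by calls and medians on the TMM scale. In the shortest quintile of canonical transcripts 36.9% of genes were higher and 22.0% lower, with a median of 0.23. In the longest quintile 17.0% were higher and 43.7% lower, with a median of -0.29. The medians of the 5 quintiles fell in order, from 0.23 over -0.05, -0.15 and -0.23 to -0.29. For the 3′ UTR the order was the same, from 0.10 in the shortest to -0.23 in the longest quintile. Spearman's rho across genes was -0.18 for transcript length, -0.13 for 3′ UTR length and -0.07 for intron length, given as a description since genes of one set of libraries are not independent. Genes of 1 exon stood apart, with 52.9% lower and a median of -0.60. Of these, the 46 histone genes had a median of -3.52, and the 200 others one of -0.36 with 44.5% lower.

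**Figure D5:**
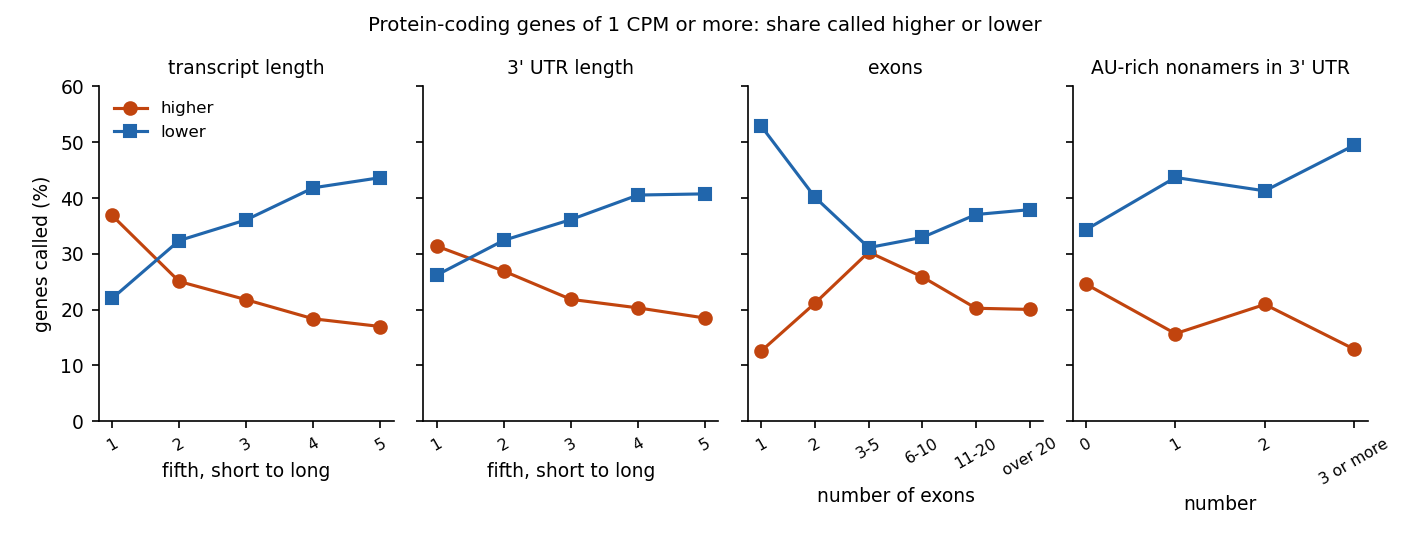
Share of genes called higher (orange circles) and lower (blue squares) with triptolide (y axis, %) among nuclear protein-coding genes of 1 CPM or more, by quintile of transcript length, quintile of 3′ UTR length, number of exons and number of AU-rich nonamers in the 3′ UTR (x axes). From the shortest to the longest transcripts the share lower goes from 22.0 to 43.7% and the share higher from 36.9 to 17.0%.

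AU-rich elements are sequences in 3′ UTRs that mark messages for rapid decay, and the nonamer TTATTTATT (T standing for U in the RNA) is their core. It was searched on the transcript strand and copies that overlap were each counted. It was present in 9.29% of the 12385 genes of this set with a 3′ UTR, in 11.6% of the 4359 lower genes and in 6.35% of the 2946 higher genes. With 0 nonamers 34.3% of genes were lower and 24.6% higher, and with 3 or more 49.5% were lower and 12.9% higher, over 93 genes. Between these, the 886 genes with 1 nonamer were lower in 43.7% and higher in 15.7%, and the 172 with 2 in 41.3% and 20.9%, so the shares did not follow the number step by step. Genes with the nonamer had the lower median in each of the 5 quintiles of 3′ UTR length, at -0.23 against 0.11 in the shortest and -0.31 against -0.21 in the longest. 34 genes of the shortest quintile held it. The windows below show the first nonamer, in capitals, within 30 bases of the 3′ UTR (GENCODE release 44, GRCh37) of 4 messages that fell and 4 that rose, to show that the same core lies in both.
MED13L, lower (chr12:116398454-116398483, minus strand): ttcattttgtTTATTTATTttaatttgttt
FZD4, lower (chr11:86660494-86660523, minus strand): gcaatgacatTTATTTATTaattcatgcct
CISH, lower (chr3:50644524-50644553, minus strand): tatacactatTTATTTATTtattctccttg
MDM2, lower (chr12:69238542-69238571, plus strand): tattttatttTTATTTATTttttgagacgg
FOS, higher (chr14:75748763-75748792, plus strand): tgtttttaatTTATTTATTaagatggattc
DUSP1, higher (chr5:172195645-172195674, minus strand): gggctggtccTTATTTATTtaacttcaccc
TNFAIP3, higher (chr6:138203435-138203464, plus strand): gtaattcactTTATTTATTttattacaaac
PMAIP1, higher (chr18:57571193-57571222, plus strand): aggaataattTTATTTATTttgcctattta
CISH, a feedback inhibitor of cytokine signals, fell from 12.9, 8.03 and 9.22 CPM to 4.70, 2.27 and 3.05 CPM (-1.61 ± 0.20 (SE)), and FZD4 from 65.1, 62.2 and 58.2 CPM to 16.6, 16.9 and 16.7 CPM (-1.88 ± 0.20 (SE)). The 4 that rose had DMSO means of 1.63 CPM for FOS, 2.21 CPM for DUSP1, 2.36 CPM for TNFAIP3 and 4.65 CPM for PMAIP1, all below the 10.1 CPM of CISH, the lowest of the 4 that fell. The 8 genes were picked for display from the named genes after their values were seen, and all 4 rises remained above 0 in each of the other scalings.

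ADAR itself, the target of the knockdown in the other line, was not called in the control line, with 457, 664 and 280.1 CPM in the DMSO libraries and 351, 467 and 319 CPM in the triptolide libraries (-0.24 ± 0.18 (SE), adjusted p = 0.27). In the knockdown line it stood at 293, 356 and 217 CPM with DMSO and 109.5, 163.6 and 141.4 CPM with triptolide, below the control library of the same number and treatment in each case. The change with triptolide differed between the lines for 1 gene (0.0047% of genes tested) by the interaction test of edgeR. That gene was CUBN, which encodes cubilin, an uptake receptor (chromosome 10, 16865965 to 17171810), which rose in the control line from 6.41, 21.3 and 7.35 CPM to 12.1, 34.3 and 17.3 CPM and was at 0.0240, 0.635 and 0.227 CPM with DMSO and 4.68, 6.21 and 2.68 CPM with triptolide in the knockdown line. The difference of both changes was -3.20 ± 0.49 (SE, adjusted p = 0.043). The call was lost without the block, and when any control library, any knockdown DMSO library or any replicate number was left out. All 3 knockdown libraries with DMSO were below all 3 control libraries with DMSO, and CUBN overlapped between treatments in the control line.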

How the data were processed

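Total RNA of 18 libraries (6 groups of 3) was sequenced. The authors deposited raw counts of reads per gene, which per the submitters' processing notes involved STAR 2.4.2a, the hg19 build, HTSeq 0.6.1, DESeq2 1.4.5 and R 3.1. Whether counting used strand is not given in the sources used here. The 5 tally rows that name no gene were left out, and they held 26.0 to 35.4% of reads in the 6 libraries compared. Of 60252 gene IDs 58822 (97.63%) matched GENCODE release 44 on GRCh37, which gave symbols, classes, positions and sequences.

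Counts were fitted in edgeR 4.0.16 (R 4.3.3) by the quasi-likelihood test, with group and replicate number as terms over all 18 libraries (10 residual degrees of freedom), TMM scaling and the filterByExpr filter, which kept 21285 genes. A gene is called at a Benjamini-Hochberg adjusted p under 0.05, and all adjusted p-values in the text are from this fit over all genes tested unless another is named. Replicate numbers come from the titles. Same-numbered DMSO and triptolide libraries of the control line deviated together from the means of their groups (r from 0.394 to 0.595, 3 pairs), so the number was kept as a block. Differently numbered ones had r from -0.349 to -0.0552 (6 pairs). Taking deviations from group means pushes these below 0 once same-numbered ones agree, so they add no support. No 2 replicates agreed within sampling noise. Values over 6 libraries are given singly, in replicate order. Ratios for genes with 1 to 3 counts in a group carry 95% exact intervals, which cover counting error only, and 3 counts are the limit for a count of 0. Alternatives were 4 other scalings, no filter, no replicate block, a fit of only the groups compared, DESeq2 1.42.0, a 2-fold limit, and leaving out each library or replicate number.

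The members, the 63 gene lists and the tests were chosen with earlier results of these data known, so no list is independent evidence of its direction. Genes were named by a rule: the 10 higher and 10 lower protein-coding genes with the largest change among called genes without overlap and with 5 CPM or more in the higher group, the 5 higher and 5 lower genes with the largest difference in CPM, in each list the 3 called members with the smallest p and up to 2 of the opposite direction, and ERCC3 and ADAR. Genes outside that rule (H1-10, CUBN and the marker genes given by counts) were named after their values were seen, and some results that the rule would name are not reported here. Transcript features and 3′ UTRs are those of the canonical transcript.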

Additional observations from a re-analysis of the deposited data

Results flagged for a closer look

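CUBN, which encodes the uptake receptor cubilin, was singled out because its change with triptolide differed between both lines by the interaction test of edgeR. The control line's change minus that of the knockdown line was -3.20 on the log2 scale (SE 0.49, adjusted p = 0.043). In the control line replicate 2 stood above the others in both treatments, with 6.41, 21.3 and 7.35 CPM with DMSO and 12.1, 34.3 and 17.3 CPM with triptolide. In the knockdown line the DMSO libraries had 0.0240, 0.635 and 0.227 CPM, and each was below every triptolide library of that line (4.68, 6.21 and 2.68 CPM). Over all genes 845 had an unadjusted p under 0.05 for this difference. The call was absent without the replicate block, and when any of the 6 control libraries, any of the 3 knockdown DMSO libraries or any replicate number was left out. In a fit of only the groups compared it was also absent (adjusted p = 0.0648). It was present when any of the 3 knockdown triptolide libraries was left out (adjusted p from 0.0131 to 0.0334).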

How the results depend on the processing

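The count of 11090 genes called was 6565 without the replicate block and 6017 with a 2-fold limit. Higher genes numbered 5555, and 3162 without the block, 3058 with the 2-fold limit, 2183 with total counts and 1544 with the mitochondrial mRNAs as the standard. Lower genes numbered 5535, and 3403, 2959, 10351 and 9912 in the same order. Leaving out a library or a replicate number gave 8371 to 10830 called, 4159 to 5463 higher and 4212 to 5367 lower genes. DESeq2 called 11266 genes. The line difference, 1 gene, was 4 genes with DESeq2, 15 with no filter on low counts, 5 with the mitochondrial mRNAs as the standard, 0 without the block, 0 with only the groups compared, and 0 to 1 when a library or number was left out. NDRG1 was the 1 named gene whose change against the median of all genes reversed, to -0.174 without the block from 1.39, and the cause was not tested. The cause of the other shifts was not tested either, beyond the scalings' own construction, which moves all genes by a like amount. Of 264 named genes 263 were called, 222 of them without the block and 237 in every fit with a library or number left out. Without a median subtracted, 56 named genes turned sign with the mitochondrial mRNAs as the standard and 28 with total counts. Counts of called members moved by over 1.5 times for 43 of 63 lists without the block, 46 with the 2-fold limit, 22 with the mitochondrial mRNAs as the standard and 21 with total counts, and for 1 list with DESeq2. Depth limits the genes near 0 with DMSO, where 3 counts over a group correspond to 0.0284 CPM with DMSO and 0.0467 CPM with triptolide.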
